A study of Mus musculus with 6 samples.

Results

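Omega-hydroxylase genes of the *Cyp4* family were followed in 6 RNA-seq libraries, each made from the liver of 1 mouse. The members are the 10 genes *Cyp4a10*, *Cyp4a12a*, *Cyp4a12b*, *Cyp4a14*, *Cyp4a31*, *Cyp4a32*, *Cyp4f13*, *Cyp4f14*, *Cyp4f15* and *Cyp4v3*, found by their symbol among the 54446 genes of the count tables. The rule names genes and uses no fold change, but it was set with earlier results of these data known. The libraries come from 3 male WT mice of the C57BL/6J strain and 3 male *Fmo5*-/- mice, which lack the flavin-containing monooxygenase FMO5 and were bred on the same background. All animals ate standard chow with free access and were sampled in the morning, and the question of the study was which hepatic pathways accompany the leanness of the knockout. The mice were 32 weeks old. Nothing in the sources says whether the genotypes were littermates, and the 3 libraries of a genotype are numbered here only in order of accession.

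Cytochromes P450 of the CYP4 family hydroxylate fatty acids at the omega carbon, the end of the chain that lies away from the acid group. The alcohol is then oxidized to an aldehyde and to a dicarboxylic acid, which peroxisomes shorten. In rodent liver *Cyp4a10* and *Cyp4a14* are classical targets of PPARA, the nuclear receptor that fatty acids and fibrates activate, whereas *Cyp4a12a* and *Cyp4a12b* are more active in males and depend on androgens and on the pulses of growth hormone. The *Cyp4f* enzymes inactivate leukotrienes and trim the side chain of vitamin E, and *Cyp4v3* is the mouse counterpart of the human enzyme that is defective in Bietti crystalline dystrophy, an eye disease.

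The labels and the tissue were checked first. *Fmo5* lay between 30240 and 39808 normalized counts in the WT mice and between 1071 and 1194 in the *Fmo5*-/- mice (log2 fold change -5.00, SE 0.137, edgeR adjusted p = 2.79e-07). A normalized count is the raw count scaled to the mean effective library size, and the libraries held 44886286 to 52338675 counts on genes. The 8 hepatocyte markers summed to between 115800 and 148600 CPM (counts per 1e6 counts on TMM-scaled sizes). Of 6 markers of the kidney tubule, another site of *Cyp4a* transcription, 5 had too few reads to be tested, with 0 to 5 reads each over the 6 libraries, and the sixth, *Lrp2*, which was not called, had means of 112 in WT and 51.5 in *Fmo5*-/- mice (log2 fold change -1.13, SE 0.274, edgeR adjusted p = 0.071), without overlap.

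The 6 *Cyp4a* members lie together on chromosome 4. In the GENCODE vM21 annotation of GRCm38, the build that mm10 denotes, they are *Cyp4a12a* (chr4:115299046-115332815), *Cyp4a12b* (chr4:115411624-115439034), *Cyp4a14* (chr4:115486200-115496142), *Cyp4a10* (chr4:115518264-115533649), *Cyp4a31* (chr4:115563649-115579015) and *Cyp4a32* (chr4:115600969-115621602). *Cyp4a14* is on the minus strand and the other five are on the plus strand. The 3 *Cyp4f* members lie on chromosome 17, *Cyp4f15* on the plus strand (chr17:32685627-32703352), and *Cyp4f14* (chr17:32905070-32917342) and *Cyp4f13* (chr17:32924688-32947402) on the minus strand. *Cyp4v3* stands alone on chromosome 8 (chr8:45304944-45333216, minus strand).

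The members were also compared over the bases that encode the haem-binding signature of P450 enzymes. The signature is a run of 10 residues near the C-terminus whose cysteine holds the haem iron, and a search of the translated coding sequences found it 1 time in each member. The 30 coding bases are given 5′ to 3′ from the GENCODE transcripts with the cysteine codon in capitals.
Cyp4a10: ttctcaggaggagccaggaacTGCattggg
Cyp4a12a: ttctcaggaggagcaaggaacTGCattggg
Cyp4a12b: ttctcaggaggagcaaggaacTGCattggg
Cyp4a14: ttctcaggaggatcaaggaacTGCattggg
Cyp4a31: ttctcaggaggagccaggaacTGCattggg
Cyp4a32: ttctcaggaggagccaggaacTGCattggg
Cyp4f13: ttctcagcggggaccaggaacTGCatagga
Cyp4f14: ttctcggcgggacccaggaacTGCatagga
Cyp4f15: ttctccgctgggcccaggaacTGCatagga
Cyp4v3: ttttctgctggacctcgaaacTGTattggt
The stretch was the same in *Cyp4a12a* and *Cyp4a12b*, and the same in *Cyp4a10*, *Cyp4a31* and *Cyp4a32*. Against *Cyp4a14* it differed at 1 base in the first set and at 2 bases in the second, at 7 or 8 bases in the *Cyp4f* members and at 10 bases in *Cyp4v3*, which alone uses another codon for the cysteine. These are differences of bases, and not all of them change a residue. The stretches of *Cyp4v3*, *Cyp4f14* and *Cyp4f15* encode the same residues, whereas *Cyp4f13* differs from them and *Cyp4a14* from the other *Cyp4a* members. In all 10 members the stretch crosses an exon junction. In *Cyp4a14* it spans chr4:115487299-115489805 on the minus strand.

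How similar the coding sequences are bears on what the counts can tell apart, because the authors counted only reads that map to 1 place. Of the 45 pairs of members, 4 share over 90% of their aligned coding bases. *Cyp4a12a* and *Cyp4a12b* are 98.5% identical and differ at 23 of 1524 bases. *Cyp4a10* is 97.2% identical to *Cyp4a32* and 96.6% identical to *Cyp4a31*, and *Cyp4a31* and *Cyp4a32* are 96.0% identical. *Cyp4a14* is at most 76.8% identical to another member. The closest *Cyp4f* pair, *Cyp4f14* and *Cyp4f15*, is 82.1% identical.

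The reads were 75 bases long. The 75 coding bases in which *Cyp4a12a* and *Cyp4a12b* differ most, coding bases 676 to 750 of each (chr4:115326674-115326748 and chr4:115432927-115433001, both on the plus strand and within 1 exon), are shown because, among coding windows that lie side by side, none tells this pair apart at more bases. Untranslated parts were not searched for this. The 6 bases that differ are in capitals.
Cyp4a12a: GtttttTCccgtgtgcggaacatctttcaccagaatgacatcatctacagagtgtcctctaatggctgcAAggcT
Cyp4a12b: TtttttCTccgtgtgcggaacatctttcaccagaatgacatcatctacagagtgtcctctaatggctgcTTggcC
Of the 1450 such windows that lie side by side in this pair, 666 (45.9%) hold no difference at all. For *Cyp4a10* and *Cyp4a32* the most different 75 bases are coding bases 187 to 261, which cross an exon junction on the plus strand (chr4:115518508-115519701 in *Cyp4a10* and chr4:115601161-115602331 in *Cyp4a32*), with 11 differing bases in capitals.
Cyp4a10: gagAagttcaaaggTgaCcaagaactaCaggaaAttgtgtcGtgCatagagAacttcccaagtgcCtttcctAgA
Cyp4a32: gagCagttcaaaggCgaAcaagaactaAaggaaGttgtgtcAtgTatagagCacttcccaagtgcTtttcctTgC
Here 302 of 1453 windows (20.8%) hold no difference. Over the longest transcript of each gene, 41.3% of the windows of *Cyp4a12b* and 40.8% of those of *Cyp4a12a* also occur in a transcript of another gene, 30.4% in *Cyp4a32*, 19.1% in *Cyp4a10* and 13.9% in *Cyp4a31*. The longest transcripts of *Cyp4a14* and *Cyp4f13* have none, and 4 windows each of *Cyp4f14* and *Cyp4f15* occur in another gene. Reads from shared windows were left out of the counts, so the counts of the near-identical members are too low to that extent and are uncertain as levels, and this holds for both genotypes alike. In *Cyp4v3*, 6.4% of the windows occur in *Gm45753*, whose exons overlap those of *Cyp4v3* on the same strand, and reads in the overlap were counted for neither gene.

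None of the 10 members differed between the genotypes by edgeR's quasi-likelihood test at an adjusted p under 0.05. None had an unadjusted p under 0.05, which 21.8% of all genes had, DESeq2 called 0 of them and 8.96% of all genes it gave an adjusted p, and in 0 of the 10 were the 3 *Fmo5*-/- mice all above or all below the 3 WT mice. Over all 16734 genes tested, 229 were called, which is 1.37%, with 0.693% called lower and 0.675% called higher in the *Fmo5*-/- mice, and in 27.4% of them all 3 mice of 1 genotype lay above all 3 of the other. 5 members had a negative and 5 a positive log2 fold change, with a median of 0.0118 for the members and 0.00576 for all genes. The plot of counts by mouse shows that this average covers 2 kinds of gene, *Cyp4a* members of which several spread widely between mice of 1 genotype, and *Cyp4f* members that vary little, with *Cyp4v3* between them.

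**Figure D1:**
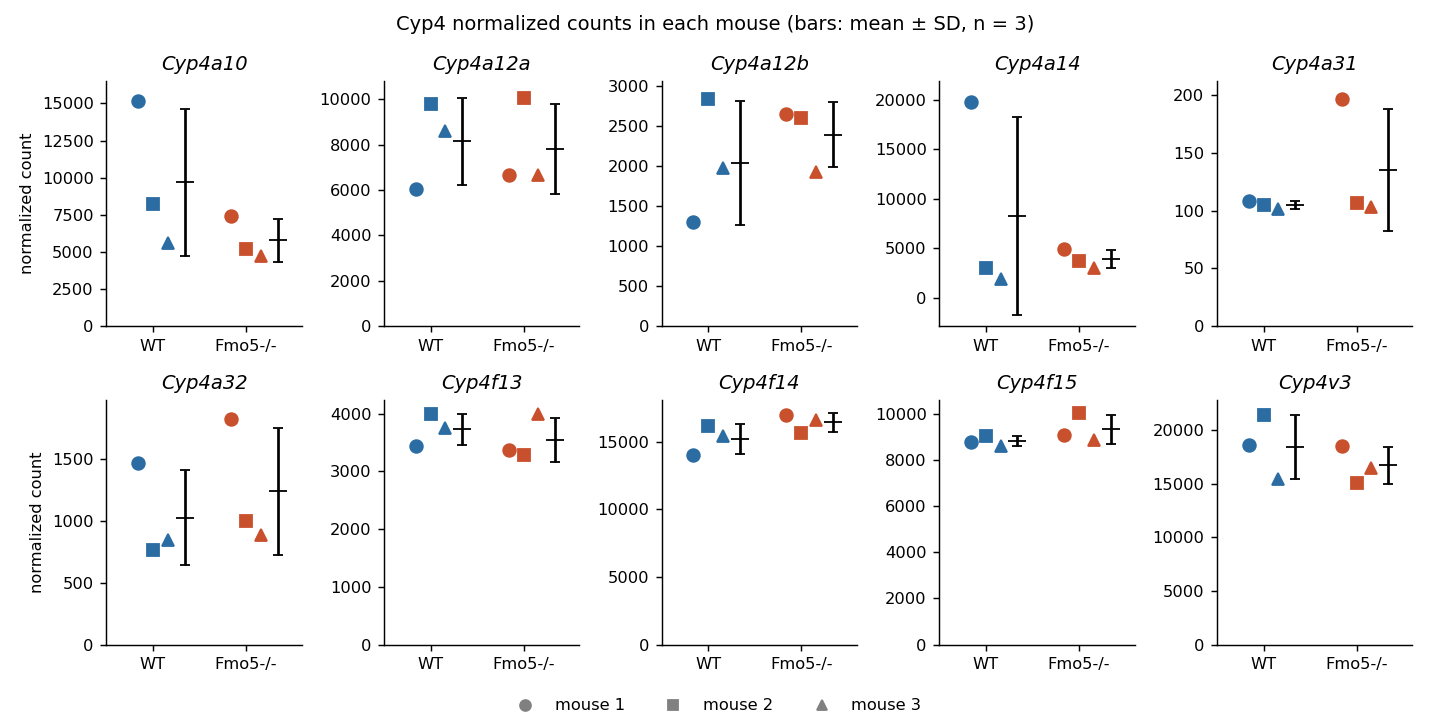
Normalized counts of the 10 Cyp4 members in each of 3 WT mice (blue) and 3 Fmo5-/- mice (orange), on linear axes, with mean ± SD (n = 3) beside the points. In every panel the genotypes overlap, and the first WT mouse stands at 19769 for Cyp4a14 where the other WT mice are at 3043 and 1891.

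*Cyp4a14*, a strongly PPARA-induced omega-hydroxylase, had 19769, 3043 and 1891 normalized counts in the WT mice and 4934, 3765 and 3057 in the *Fmo5*-/- mice. The first WT mouse was 8.01 times the mean of the other 2 WT mice, and each *Fmo5*-/- mouse lay above both of those and below the first. The counts ran over a 10.5-fold range in WT and a 1.61-fold range in *Fmo5*-/-, and the SD of log2 CPM within genotypes, 1.29, was above that of 99.8% of the genes tested. The log2 fold change was -1.07 (SE 1.01, edgeR adjusted p = 0.607), with a 95% confidence interval from -3.75 to 1.61, that is from 0.0745-fold to 3.04-fold. Without the first WT mouse the value turned to 0.67 (SE 0.267, edgeR adjusted p = 0.323). So 1 mouse sets the direction of this fold change, and neither fit called it.

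*Cyp4a10*, the other classical PPARA target, had 15179, 8218 and 5622 normalized counts in WT and 7415, 5218 and 4695 in *Fmo5*-/- mice. The order of the mice within each genotype was that of *Cyp4a14*, again with the first WT mouse on top, at 2.19 times the mean of the other 2. The lowest WT mouse lay within the range of the *Fmo5*-/- mice. The log2 fold change was -0.74 (SE 0.406, 95% confidence interval -1.77 to 0.28, edgeR adjusted p = 0.362), and it was -0.26 (adjusted p = 0.667) without the first WT mouse.

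*Cyp4a32* and *Cyp4a31* are the close copies of *Cyp4a10*. *Cyp4a32* had 1470, 768 and 845 normalized counts in WT and 1831, 1004 and 886 in *Fmo5*-/- mice, so that the first mouse of each genotype was the highest and the genotypes overlapped (log2 fold change 0.27, SE 0.387, edgeR adjusted p = 0.741). Without the first WT mouse the log2 fold change was 0.62 (SE 0.337, adjusted p = 0.462), and without the first *Fmo5*-/- mouse it was -0.12. *Cyp4a31* was scarce, with a mean of 120, the only member with a mean under 500. It had 108, 105 and 101 normalized counts in WT and 197, 107 and 103 in *Fmo5*-/- mice, which is 1 high mouse among 5 that agree closely (log2 fold change 0.37, SE 0.26, edgeR adjusted p = 0.447). In that mouse the count was 1.88 times the mean of the other 2 *Fmo5*-/- mice, and without it the log2 fold change was 0.000 (SE 0.195).

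*Cyp4a12a* and *Cyp4a12b* are the male-biased members, and *Cyp4a12a* is the main source in male mice of the arachidonic acid product that acts on renal vessels. *Cyp4a12a* had 6024, 9789 and 8598 normalized counts in WT and 6677, 10074 and 6661 in *Fmo5*-/- mice (log2 fold change -0.06, SE 0.225, 95% confidence interval -0.59 to 0.47, edgeR adjusted p = 0.904). *Cyp4a12b* had 1301, 2840 and 1983 in WT and 2657, 2607 and 1920 in *Fmo5*-/- mice (log2 fold change 0.23, SE 0.294, 95% confidence interval -0.49 to 0.95, edgeR adjusted p = 0.705). Leaving out the first WT mouse put *Cyp4a12b* at -0.005 (edgeR adjusted p = 0.994), so 1 mouse sets its direction, and the value of *Cyp4a12a* ran from -0.29 to 0.10 as single mice were left out. In both genes the first WT mouse, the highest for *Cyp4a14* and *Cyp4a10*, was the lowest of all 6. It had 0.655 times the mean of the other WT mice for *Cyp4a12a* and 0.539 times for *Cyp4a12b*. The reads that could be told apart gave *Cyp4a12b* a share of 17.8% to 22.5% of the pair in WT and of 20.6% to 28.5% in *Fmo5*-/- mice.

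The *Cyp4f* members were steady. *Cyp4f14*, a leukotriene and fatty acid omega-hydroxylase, had 14028, 16167 and 15468 normalized counts in WT and 16994, 15684 and 16628 in *Fmo5*-/- mice (log2 fold change 0.11, SE 0.09, edgeR adjusted p = 0.522). Its 95% confidence interval ran from 0.938-fold to 1.24-fold. *Cyp4f15* had 8797, 9036 and 8612 in WT and 9113, 10052 and 8863 in *Fmo5*-/- mice (log2 fold change 0.08, SE 0.084, edgeR adjusted p = 0.609, 0.929-fold to 1.21-fold). *Cyp4f13* had 3440, 3985 and 3752 in WT and 3369, 3274 and 3986 in *Fmo5*-/- mice (log2 fold change -0.07, SE 0.1, edgeR adjusted p = 0.721, 0.814-fold to 1.11-fold). The intervals of these 3 genes thus lie between 0.814-fold and 1.24-fold, whereas that of *Cyp4a14* reaches from 0.0745-fold to 3.04-fold. The SD of log2 CPM within genotypes was 0.072 for *Cyp4f15*, 0.085 for *Cyp4f14* and 0.132 for *Cyp4f13*. In that order, these were above the SD of 10%, 15.5% and 35.1% of the genes tested. As single mice were left out, the log2 fold change ran from 0.061 to 0.158 for *Cyp4f14*. It ran from 0.028 to 0.118 for *Cyp4f15* and from -0.168 to -0.018 for *Cyp4f13*.

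*Cyp4v3*, a fatty acid omega-hydroxylase with the highest mean count of the members but the highest count in only 2 of the 6 mice, had 18575, 21386 and 15421 normalized counts in WT and 18555, 15054 and 16513 in *Fmo5*-/- mice. The first mice of the genotypes were nearly equal and the ranges overlapped (log2 fold change -0.14, SE 0.132, edgeR adjusted p = 0.573, 95% confidence interval 0.736-fold to 1.11-fold). As single mice were left out, the log2 fold change ran from -0.253 to -0.023. The plot of fold changes and intervals sets the 10 members side by side with and without the first WT mouse.

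**Figure D2:**
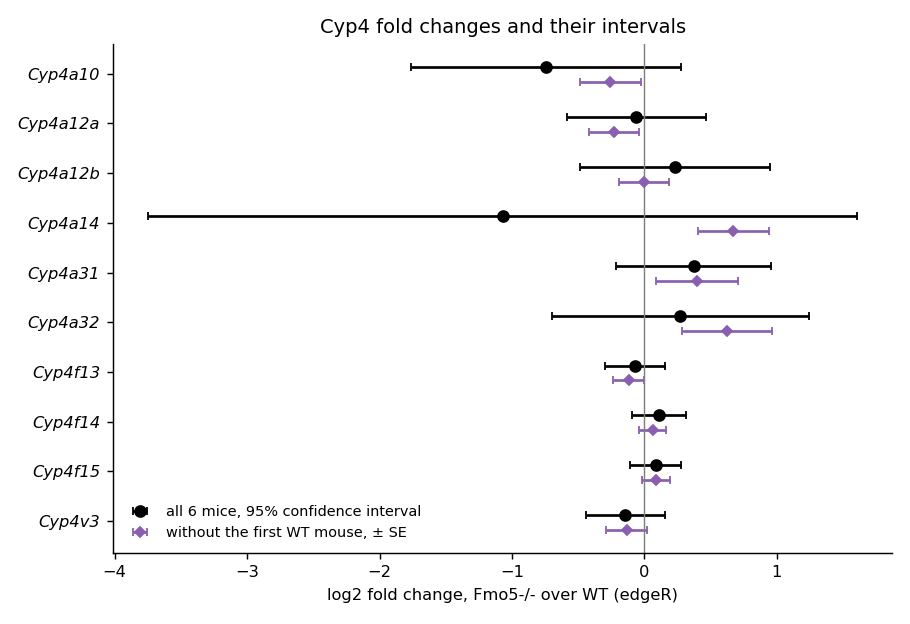
Log2 fold change, Fmo5-/- over WT, of each Cyp4 member from edgeR with its 95% confidence interval (black, all 6 mice) and, without the first WT mouse, with its SE (violet). All 10 black intervals include 0, and for Cyp4a14 the estimate moves from -1.07 to 0.67.

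Per kilobase of exon, which allows levels to be compared between genes, *Cyp4f14* had the highest mean in both genotypes, although *Cyp4a14* (156) and *Cyp4a10* (148) lay above it (119) in the first WT mouse. It reached 129 CPM per kb (SD 9.23, n = 3) in WT and 139 (SD 5.74, n = 3) in *Fmo5*-/- mice, and its libraries did not overlap those of the next gene, *Cyp4v3* (99.4, SD 16.1, in WT and 89.9, SD 9.47, in *Fmo5*-/-). In WT mice there followed *Cyp4a10* (94.0, SD 48.0), *Cyp4f15* (79.2, SD 1.91), *Cyp4a12a* (68.9, SD 16.3), *Cyp4a14* (64.9, SD 78.8), *Cyp4a12b* (17.5, SD 6.6), *Cyp4f13* (17.2, SD 1.26) and *Cyp4a32* (13.7, SD 5.14), and no neighbours among these or with *Cyp4v3* were apart in all libraries. *Cyp4a31* came last at 0.855 CPM per kb (SD 0.0279), below every library of *Cyp4a32*. In *Fmo5*-/- mice *Cyp4f15* (83.9, SD 5.63) came next after *Cyp4v3*, followed by *Cyp4a12a* (66.0, SD 16.7) and *Cyp4a10* (56.1, SD 14), and only the last of these 3 was apart from the gene after it, *Cyp4a14* (30.9, SD 7.47). For *Cyp4f13* the place depends on the length used, since its exons cover 4441 bases over 14 transcripts while the longest transcript has 1752 bases. Over windows found in no other gene's transcripts, a length chosen after seeing the data, the WT means were 120 for *Cyp4a12a*, 30.7 for *Cyp4a12b*, 20.8 for *Cyp4a32* and 45.5 for *Cyp4f13*, all above the values by exon length, and *Cyp4f14* (146) was no longer apart from the next gene in WT.

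**Figure D3:**
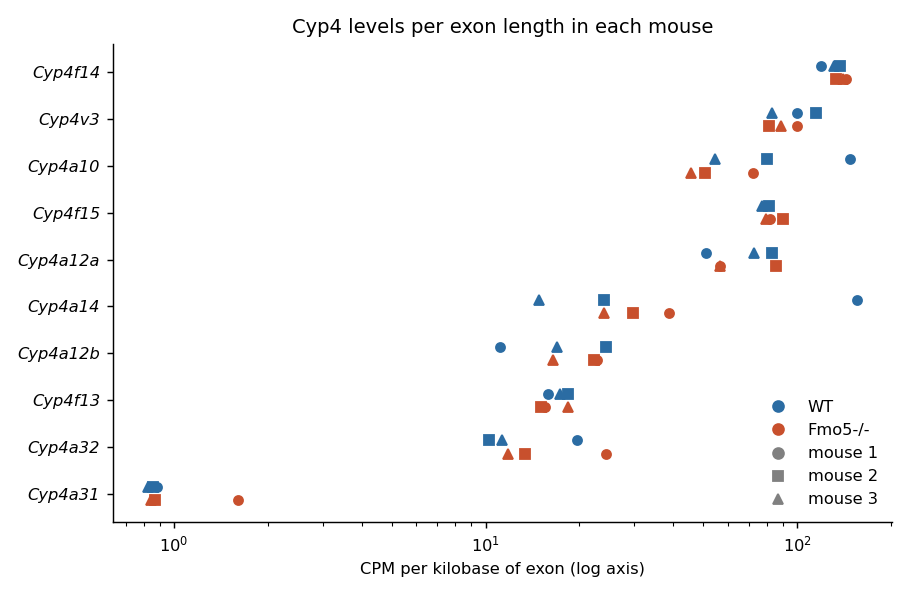
Level of each Cyp4 member in CPM per kilobase of exon on a log axis, 1 point per mouse, WT in blue and Fmo5-/- in orange, ordered by the WT mean. Levels run from about 0.855 for Cyp4a31 to 129 for Cyp4f14 in WT, and the 3 WT points of Cyp4a14 lie from 14.9 to 156.

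The members together took 0.174%, 0.15% and 0.122% of the counts in the WT mice and 0.147%, 0.148% and 0.134% in the *Fmo5*-/- mice. Their makeup differed more than their sum. *Cyp4a14* supplied 22.3% of the member counts in the first WT mouse and between 3.03% and 6.88% in the other five mice. The 6 *Cyp4a* members supplied 49.4% in the first WT mouse and 27.4% to 34.1% in the others. The 4 *Cyp4f* and *Cyp4v3* members had a summed level of 886 to 1036 CPM over the 6 mice, against 355 to 899 CPM for the *Cyp4a* members.

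Ratios between 2 members of 1 mouse do not depend on the scaling of the libraries. Of the 45 ratios, 41 overlapped between the genotypes, and these ratios were looked at after the values had been seen. *Cyp4a10* over *Cyp4a32* was 10.3, 10.7 and 6.66 in WT and 4.05, 5.19 and 5.3 in *Fmo5*-/- mice. The ratios of *Cyp4a10* over *Cyp4a12b*, of *Cyp4a10* over *Cyp4a31* and of *Cyp4f13* over *Cyp4f14* were also lower in each *Fmo5*-/- mouse, the last of them at 0.245, 0.246 and 0.243 in WT and 0.198, 0.209 and 0.24 in *Fmo5*-/- mice. These 4 are 8.89% of the ratios, and all but the last share *Cyp4a10*. The share of single genes tested without overlap, 27.4%, is no background for ratios that share members. Nothing is read from the 4 ratios, and no test was run.

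Genes that share the known regulators of the *Cyp4a* members were compared between the WT mice. Over all 16734 genes the first WT mouse was the highest WT mouse in 30.8% and the lowest in 31.4%. Of 17 male-biased genes that depend on growth hormone and STAT5B, it had the lowest value among the WT mice in 14, with a median deviation of -0.47 log2 CPM from the WT mean, and it was the highest in 7 of 9 female-biased genes. Of 10 genes of growth hormone signalling it was the lowest WT mouse in 5 and the highest in 1. Among 37 PPARA targets other than the members, the first WT mouse was the highest WT mouse in 25, with a median deviation of 0.11, against 0.04 in the second and -0.20 in the third WT mouse, which thus deviated more. In the first *Fmo5*-/- mouse, which was the highest of its genotype in 5 of the 6 *Cyp4a* members, 22 of the 37 PPARA targets and 7 of the 9 female-biased genes were also at the highest level of that genotype, against 35.6% of all genes. That mouse was the highest of its genotype in 4 of the 17 male-biased genes. It was so in 9 of 11 genes of the fasted state, 9 of 14 of the receptor and its partners and 9 of 13 of peroxisomal oxidation. Adipocyte markers were also highest in the first WT mouse, with 45.5, 7.8 and 0 normalized counts of *Plin1*, a lipid droplet protein, 40.2, 6.7 and 1 of the hormone gene *Adipoq*, and 21.2, 7.8 and 3.1 of *Retn* in the WT mice. The 5 adipocyte markers, of which *Cfd* was the most abundant, summed to 19.5, 11.3 and 9.26 CPM in the WT mice and to 0.825 to 2.63 CPM in the *Fmo5*-/- mice, and *Cfd* had a log2 fold change of -3.21 without overlap between the genotypes (SE 0.565, edgeR adjusted p = 0.0633). Among the WT mice, the first was also the highest in 6 of 7 lymphocyte markers and in 2 of 2 neutrophil markers tested. It was the lowest in 4 of 6 cholangiocyte markers. The part of these regulators and of other cells in the spread of the *Cyp4a* members was not tested.

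**Figure D4:**
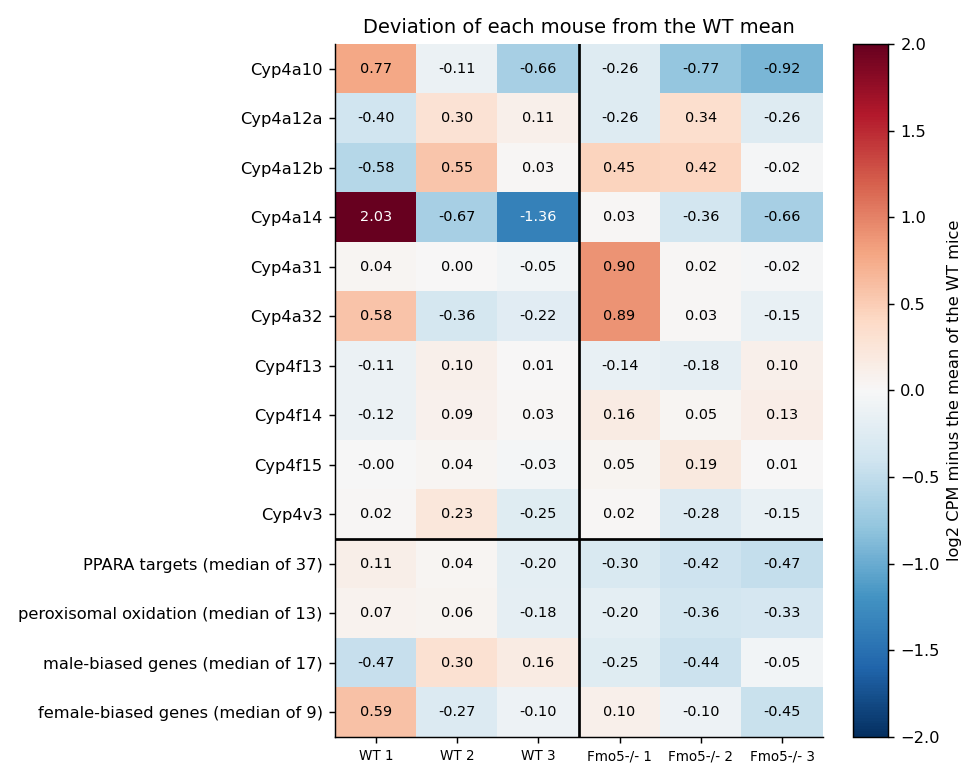
Log2 CPM of each Cyp4 member in each mouse minus the mean of the WT mice, with the median deviation of 4 gene lists in the lower rows; red is above and blue below the WT mean. The first WT mouse is at 2.03 for Cyp4a14 and at -0.58 for Cyp4a12b.

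The genes whose values over the 6 mice were most like those of 3 of the members were sought among 7818 other genes with a mean of 500 or more, by the root mean square difference of log2 CPM centred on the WT mean. For *Cyp4a14* these were *Egr1* (0.667), *Cyp4a10* (0.669), *Vnn1* (0.686), *Zfp36* (0.749) and *Gsta2* (0.761), none of them close. In the first WT mouse *Cyp4a14* stood at 2.03 from the WT mean and these genes at 0.71 to 1.01. In the first *Fmo5*-/- mouse *Cyp4a14* stood at 0.026, and each of these genes lay further from the WT mean, at -0.76 to -0.26. In some other mice the order was mixed. For *Cyp4a12a* the most similar genes were *Col4a1* (0.141), *Col4a2* (0.142), *Lgals4* (0.153), *Chid1* (0.157) and *P4ha1* (0.161). For *Cyp4f14* they were *Hmox2* (0.017), *Ift140* (0.025), *BC017158* (0.026), *Ifih1* (0.027) and *Proz* (0.028), which vary as little as *Cyp4f14* does.

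Beside the members, the other PPARA targets were read as a list of 38 genes, chosen with earlier results of these data known. Of the 37 tested, 7 were called lower in *Fmo5*-/- mice, as were 0.693% of all genes, and 0 higher. DESeq2 called 18 lower, 24 had an unadjusted p under 0.05 and 25 did not overlap between the genotypes. All 37 had a negative log2 fold change, as did 49.2% of all genes, and their median was -0.44 against 0.00576 for all genes. The called genes included *Fitm1*, which helps to form lipid droplets (log2 fold change -0.89, edgeR adjusted p = 0.00807), *Pex11a*, which divides peroxisomes (-0.98, adjusted p = 0.0133), *Mgll*, which splits monoacylglycerol (-0.64, adjusted p = 0.043), and, with equal adjusted p, *Slc25a20*, which carries acylcarnitine into mitochondria (-0.44, adjusted p = 0.0468), and *Cpt2*, which returns the acyl groups to coenzyme A there (-0.49, adjusted p = 0.0468). *Fgf21*, a hormone of the fasted liver, fell by 1.89 on the log2 scale (adjusted p = 0.0494). Not called were *Ehhadh*, a peroxisomal enzyme that also handles dicarboxylic acids (log2 fold change -0.22, edgeR adjusted p = 0.468), and *Cpt1a*, the entry step of mitochondrial oxidation (-0.32, adjusted p = 0.146). The count of targets called lower was 2 when either of the first 2 WT mice was left out, 1 when the first *Fmo5*-/- mouse was, and 4 when the second *Fmo5*-/- mouse was. Among the members, *Cyp4a10* and *Cyp4a14* had negative values like these, at -0.74 and -1.07, but with SEs of 0.406 and 1.01 against a median SE of 0.118 over the 37 targets, and without the first WT mouse they were -0.26 and 0.67, so that the direction of *Cyp4a14* turned.

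**Figure D5:**
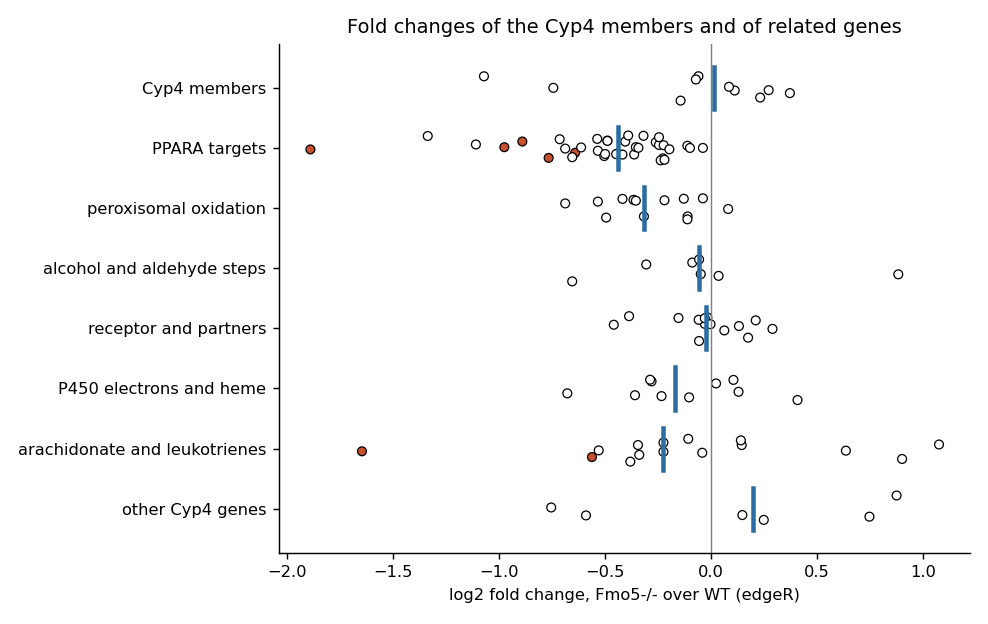
Log2 fold changes, Fmo5-/- over WT, of the 10 Cyp4 members and of the tested genes of 7 related lists, 1 point per gene (filled, adjusted p under 0.05; open, not called), spread vertically only to separate them, with the median as a blue line. The member median is near 0 at 0.0118 and that of the PPARA targets is -0.44.

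The counts of the related lists stand beside shares over all genes of 21.8% with an unadjusted p under 0.05 and 8.96% called by DESeq2. The receptor itself and its partners gave no call among 14 genes by edgeR, 2 of which had an unadjusted p under 0.05, and DESeq2 called 0. *Ppara* had a log2 fold change of -0.39 (SE 0.175, edgeR adjusted p = 0.248), its heterodimer partner *Rxra* of -0.003 (SE 0.168, adjusted p = 0.994) and *Hnf4a*, which also acts on liver P450 genes, of -0.15 (SE 0.117, adjusted p = 0.489). Of the steps after omega-hydroxylation, 0 of 7 genes of alcohol and aldehyde oxidation and 0 of 13 of peroxisomal oxidation of dicarboxylic acids were called by edgeR, 3 and 6 of them at an unadjusted p under 0.05, and DESeq2 called 2 and 5. The medians were -0.06 and -0.32, the first from -0.121 to -0.042 with 1 mouse left out and the second -0.165 without the first WT mouse, and *Aldh3a2*, the fatty aldehyde dehydrogenase, had -0.66 (SE 0.218, adjusted p = 0.143). *Por*, which feeds electrons to every microsomal P450, had 0.02 (SE 0.292, adjusted p = 0.974), and none of the 10 genes of P450 electron supply and haem was called by edgeR, with 4 at an unadjusted p under 0.05 and 1 called by DESeq2.

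On the side of growth hormone and sex, none of the 17 male-biased genes, of the 9 female-biased genes tested and of the 10 genes of growth hormone signalling was called by edgeR, 4, 0 and 0 had an unadjusted p under 0.05, and DESeq2 called 3, 0 and 0. Negative values were found in 15 of the male-biased genes (median -0.244), 5 of the female-biased genes (median -0.309, but 0.088 by DESeq2) and 3 of the signalling genes (median 0.092). The male-biased median was -0.125 without the second WT mouse, -0.154 without the second and -0.382 without the third *Fmo5*-/- mouse, the female-biased one was 0.065 without the first and -0.485 without the second WT mouse, and that of signalling was 0.051 without the first and 0.195 without the second *Fmo5*-/- mouse. The male-biased gene with the largest log2 fold change, *Selenbp2*, named after its values were seen, had 3818, 26125 and 23009 normalized counts in WT and 177, 202 and 453 in *Fmo5*-/- mice (-6.00, SE 1.03, edgeR adjusted p = 0.0736), without overlap. *Ghr*, the receptor, had a log2 fold change of -0.15 (SE 0.091, edgeR adjusted p = 0.366) and *Stat5b*, which carries its signal, of 0.01 (SE 0.101, adjusted p = 0.951). Among 15 genes of arachidonate and leukotriene metabolism, the substrates of the *Cyp4f* enzymes, 2 were called and both were lower, *Ephx1*, which opens epoxides (-0.56, adjusted p = 0.0378), and *Ptges*, a prostaglandin synthase (-1.65, adjusted p = 0.0468). Of the 15, 8 had an unadjusted p under 0.05, and DESeq2 called 5 lower and 2 higher. By edgeR, 2 lower and 2 higher were called when the third *Fmo5*-/- mouse was left out, and 0 when any other mouse was. Of 12 further *Cyp4* genes, 6 had enough reads, and none was called by edgeR, with 2 at an unadjusted p under 0.05 and 1 called by DESeq2. The lowest of them was *Cyp4b1*, mainly a lung enzyme, at -0.75 (SE 0.173, adjusted p = 0.0677), in which the genotypes did not overlap. Of the 6, 2 had a negative and 4 a positive log2 fold change, the highest at 0.874. Of 16 clock genes and 11 genes of the fed state 0 were called by edgeR, 2 and 3 of them at an unadjusted p under 0.05 and 0 and 3 by DESeq2, and of 11 genes of the fasted state 1 was, *Fgf21*, with 2 at an unadjusted p under 0.05 and 1 called by DESeq2. *Fgf21* was not called by edgeR when any 1 WT mouse or the first *Fmo5*-/- mouse was left out, or with counts of 1 strand, and no gene of the fasted state was called among genes with a mean of 500 or more. All 11 genes of the fed state had a negative log2 fold change (median -0.451), as had 13 of the 16 clock genes (median -0.271) and 8 of the 11 genes of the fasted state (median -0.319), against 49.2% of all genes. These medians rest in part on single mice. That of the fed state was -0.168 without the second *Fmo5*-/- mouse, whose median deviation from the WT mean was -1.07 against -0.005 and -0.18 in the other two, that of the clock was -0.109 without the second WT mouse, and that of the fasted state was -0.168 without the second and -0.572 without the first *Fmo5*-/- mouse.

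Of the lists of cell type markers, the 8 of Kupffer cells all had positive log2 fold changes with an unadjusted p under 0.05, *Clec4f* alone was called (0.70, edgeR adjusted p = 0.0275), and they summed to 185 to 221 CPM in WT and to 290 to 532 CPM in *Fmo5*-/- mice. A change in the number of cells of a type and a change in RNA per cell cannot be told apart in whole liver. The Kupffer sum was highest in the first *Fmo5*-/- mouse, in which 5 of the 6 *Cyp4a* members were also the highest of their genotype. Whether the share of these cells bears on the *Cyp4* values was not tested. Among lymphoid markers *Cd8a*, of cytotoxic T cells, had 7.8 to 22.2 normalized counts in WT and 61.9 to 321 in *Fmo5*-/- mice (log2 fold change 3.39, SE 0.806, edgeR adjusted p = 0.0884). Of the neutrophil markers the tested genes *S100a8* and *S100a9* had log2 fold changes of 1.29 and 1.26 (edgeR adjusted p = 0.149 and 0.146). Of 8 perivenous and 8 periportal hepatocyte markers, edgeR called 1, *Cyp1a2*, which was higher (log2 fold change 0.65, edgeR adjusted p = 0.0208).

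Promoters could be read for 5 members from the RefSeq table for GRCm38.p6, *Cyp4a32*, *Cyp4f13*, *Cyp4f14*, *Cyp4f15* and *Cyp4v3*, each from 250 bases before to 50 after a start of transcription. They were searched on both strands for 2 copies of AGGTCA in the same direction with 1 base between, the form of site that PPARA with RXRA and HNF4A can bind. With up to 2 of the 12 bases different, 0 of the 5 members had a match, and 3.87% of 32544 promoters had one. The single AGGTCA was in none of the 5 either and in 16.2% of all promoters. With up to 3 bases different, *Cyp4a32* and *Cyp4v3* matched, as did 24.7% of all promoters. These figures describe letters within 300 bases only.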

How the data were processed

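RNA was measured in 6 livers, 1 library per mouse, 3 of each genotype, grouped by the genotype labels. The authors clipped adapters, mapped single reads of 75 bases to mm10 with STAR and deposited raw counts per gene for both strands and for each strand. Reads that map to several places were left out (10.4% to 13.1%). The authors also deposited a table with signal columns, the counts divided by 1 size factor per library, which was used for symbols and to check that ratio, and columns of their own comparison (fold changes and p-values), which were not used. The 2 other count columns, of each strand alone, are listed as other values of the deposited files, and 1 of them served as an alternative.

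Genes were joined by Ensembl identifier. Counts of both strands were compared in R 4.3.3 with edgeR 4.0.16 (filterByExpr with a minimum count of 10, TMM, robust quasi-likelihood test, genotype only), adjusted by Benjamini-Hochberg over 16734 genes, with a call at an adjusted p under 0.05. Log2 CPM used a prior count of 2. DESeq2 1.42.0 was an alternative, beside other scalings, filters, 1 strand and leaving out each mouse. An SE is the fold change over the root of F, and intervals are at 95%. Exon lengths, coding sequences and windows came from GENCODE vM21 with Biopython 1.88, matched without the version of the identifier. Identity between members was taken over coding bases, since no table of proteins was given. The p-values measure the spread between 3 mice a genotype, and no count of 0 was read as absence. Steps were tested on simulated data, in which edgeR called 14.9% of genes changed by 0.5 on the log2 scale. It called 65.7% of those changed by 1 and 98.5% of those changed by 2. The simulated counts had the spread fitted to the level of a gene, and *Cyp4a14* and *Cyp4a10* spread more than most genes. These shares therefore do not hold for those 2 members.

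All 10 members are described in every mouse. From each list the called genes with the smallest adjusted p, at most 4 a direction beside ties, and preset genes are named, except 1 that is not reported here. *Fgf21* is 1 of these. *Aldh3a2*, *Cyp4b1*, *Selenbp2*, the cell type markers named and the ratios were chosen after their values were seen. The members and lists were chosen with earlier results of these data known. *Aqp7* and other listed genes with few reads could not be tested, and *Cyp2c44* was not found by its symbol.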

Additional observations from a re-analysis of the deposited data

How the results depend on the processing

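The 10 members were uncalled under each of 12 alternatives (11 for *Cyp4a31*, which the limit of 500 leaves out), and the smallest adjusted p among these 119 values was 0.17. The sign changed in 8 of them. *Cyp4a12a*, reported at -0.06, was 0.009 if only genes with a mean of 500 entered the fit, and leaving out single mice gave it -0.29 to 0.10, positive without the second WT mouse (0.095) and without the first or the third *Fmo5*-/- mouse (0.039 each). Without the first WT mouse *Cyp4a14* was 0.672 and *Cyp4a12b* -0.005, and without the first *Fmo5*-/- mouse *Cyp4a32* was -0.122 and *Cyp4a31* 0.000. Over the mice left out in turn, *Cyp4a14* ran from -1.54 to 0.67, *Cyp4a12b* from -0.01 to 0.55, *Cyp4a32* from -0.12 to 0.62 and *Cyp4a31* from 0.00 to 0.53. All genes called numbered 229 as reported, 1395 by DESeq2, 1989 with no filter beyond 1 count, 53 if only genes with a mean of 500 entered the fit, and 31 to 763 with 1 mouse left out. PPARA targets called lower numbered 7, and 18 by DESeq2, 20 with no filter, 2 among genes with a mean of 500 and 1 to 8 with 1 mouse left out. The cause of these differences was not tested. In the other lists DESeq2 called 1 gene lower and 1 higher of the alcohol and aldehyde steps, 5 lower and 2 higher of arachidonate and leukotrienes, 5 lower of peroxisomal oxidation, 3 lower of the fed state, 3 lower of the male-biased genes, and 1 lower each of the other *Cyp4* genes and of P450 electron supply and haem. With no filter these counts were 2 and 1, 5 and 2, 6, 2, 1, 1 lower and 1 higher, and 1 lower and 1 higher, with 2 lower each of the clock, the fasted state and the receptor list and 1 of the female-biased genes. RLE scaling gave 1 for peroxisomal oxidation. A mean of 500 left 0 for arachidonate and for the fasted state, and counts of 1 strand left 1 and 0. With 1 mouse left out, the genes called lower ranged from 0 to 2 for arachidonate (higher, 0 to 2) and the fed state, and from 0 to 1 for the fasted state, the male-biased genes, the clock, the alcohol and aldehyde steps (higher, 0 to 1), peroxisomal oxidation, the receptor list and the other *Cyp4* genes. The median of the female-biased genes, -0.309, became 0.088 by DESeq2, 0.096 with no filter and from -0.485 to 0.065 with 1 mouse left out; that of peroxisomal oxidation then ran from -0.382 to -0.165 and that of P450 electron supply and haem from -0.228 to -0.038.

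In the order of WT levels, the longest transcript as length put *Cyp4f13* at place 7 and *Cyp4a12b* at place 8, the reverse of the reported order. Length counted only in windows found in no other gene's transcripts, an alternative chosen after seeing the data, put *Cyp4a10* at place 2, *Cyp4a12a* at 3, *Cyp4v3* at 4, *Cyp4f15* at 5, *Cyp4f13* at 7 and *Cyp4a12b* at 8, and left *Cyp4f14* first by mean but, in WT, no longer apart from the next gene, *Cyp4a10* (189 against 134 in the first WT mouse). Windows unique in the genome were not run, because no genome was given. The motif search with up to 3 bases different found 2 members. No paired analysis was possible because the labels give no replicate numbers.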
